A study of Mus musculus with 6 samples.

Results

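The 10 genes described here, Acta2, Tagln, Cnn1, Cnn2, Myl9, Tpm1, Tpm2, Cald1, Actg2 and Lmod1, encode the actin filament and its partners in smooth muscle. They were taken by gene name from the 19739 genes of the deposited table, and the choice was made with earlier results of these data known. All 10 were in the table and had 1 FPKM or more in each of the 6 libraries. FPKM is the number of sequenced fragments of a gene, scaled to its transcript length and to the size of the library. The libraries come from primary BMSCs of the mouse, mesenchymal stromal cells of the marrow, whose descendants include bone, fat and cartilage cells. One group of 3 libraries, labelled 3KR, had an adeno-associated virus (AAV) carrying the 3KR form of FTO, and the other 3, labelled WT, had AAV with the WT form. FTO is a demethylase that acts on N6-methyladenosine (m6A), a mark on RNA. The title of the series names SUMOylation of FTO, the attachment of the small protein SUMO, but the labels do not spell out 3KR. All 6 are input libraries of an m6A assay, so they give transcript levels and not m6A. Both groups carry a vector with FTO, and cells without a vector were not analysed here, so each difference is of 3KR against WT. The labels give neither strain nor age of the mice, and nothing in them says that the 3 libraries of a group are of separate animals or cultures. The p-values therefore reflect the spread among these libraries alone, and that spread may be technical.

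Smooth muscle cells, the pericytes that wrap small vessels and the myofibroblasts of healing tissue shorten by sliding actin filaments over myosin. Actins form the filament, tropomyosins run along it, and calponins, transgelin and caldesmon bind to it and adjust its use by myosin. The genes are switched on by serum response factor (SRF), which binds a DNA element called the CArG box, together with cofactors of the myocardin family. In marrow, smooth muscle actin marks perivascular stromal cells, and cultured stromal cells carry much of the same apparatus in their stress fibres.

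Summed over all genes, a library held 408605 to 421234 FPKM in 3KR and 390527 to 391767 in WT, and the depth is unknown because no counts were given. Across the 10985 genes tested, the median log2 difference was 0.15 (3KR minus WT), or 1.11-fold. Differences called relative have this shift subtracted. Fto averaged 443 ± 24.8 FPKM in 3KR and 258 ± 9.84 in WT (SD, n = 3 each), so the amount of its transcript differed along with the form. As both vectors carry FTO, its level does not check the labels. All 12 markers of mesenchymal stromal cells were present in both groups, with a summed level of 1599 to 1613 FPKM in 3KR and 1916 to 1941 in WT. Of these 12, 5 rose and 5 fell as deposited (46.7% and 14.0% of all genes tested), and 4 rose and 7 fell after median ratio scaling (21.6% and 24.1% of all genes). The chemokine Cxcl12 fell to 70.3 FPKM in 3KR, against 409 in WT, and the surface antigen Ly6a fell to 102 FPKM in 3KR, against 308.5 in WT, while the leptin receptor Lepr rose to 16.9 FPKM in 3KR, against 3.685 in WT. The leukocyte marker Ptprc averaged 0.0219 FPKM in 3KR and 0.119 in WT, and the endothelial marker Pecam1 averaged 0.00981 in 3KR and 0.0277 in WT. The 8 blood cell markers in the table summed to 1.08 to 1.96 FPKM in 3KR and 3.13 to 3.71 in WT, and the 8 endothelial markers to 3.01 to 3.33 in 3KR and 6.08 to 7.09 in WT. The endothelial gap lay in Tek, at 1.46 FPKM in 3KR and 5.135 in WT. Of the 7 other endothelial markers, 3 had higher and 4 had lower means in 3KR. The part of these other cells in the results was not tested.

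All 10 contractile genes rose in 3KR cells, by limma on log2(FPKM + 1) with p adjusted by Benjamini-Hochberg across the 10985 genes (adjusted p from 2.784e-07 for Tpm2 to 5.914e-04 for Cnn2). Of all genes tested, 46.7% were called higher on the same scale, so a call by itself says little about a single gene. The 10 genes were also all called higher when each library was rescaled to the same sum, where 33.5% of all genes were called higher and 18.1% lower. The same held after median ratio scaling (21.6% of all genes higher and 24.1% lower) and after quantile normalization (28.6% higher and 19.9% lower). Of all genes tested, 21.5% were called higher under all 4 scalings. The 3 libraries of 3KR lay above the 3 of WT for each of the 10 genes, as they did for 51.2% of all genes tested. Mean FPKM was at least 2-fold higher in 3KR for 5 of the 10, Cnn1, Actg2, Tpm2, Tagln and Myl9, and for 3.55% of all genes tested. The median difference of the 10 was 1.0 on the log2 scale, or 0.85 relative to the median gene, and 1.65% of all genes tested had a difference as large or larger. In such bulk libraries more cells of a contractile type and more of these transcripts per cell cannot be told apart.

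**Figure D1:**
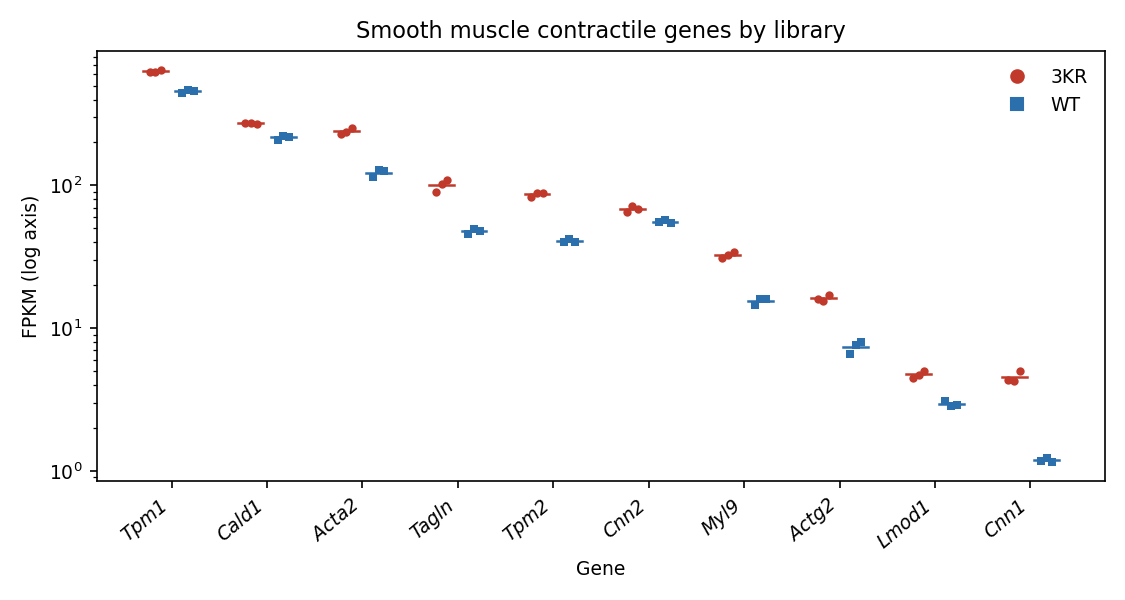
FPKM of each of the 10 contractile genes (log axis) in the 3 libraries of 3KR (red circles) and of WT (blue squares), with the group mean as a line. The 3KR libraries lie above the WT libraries for every gene, with the widest gap at Cnn1 (4.53 FPKM in 3KR against 1.185 in WT on average) and the narrowest at Cnn2 (68.5 in 3KR against 55.7 in WT).

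Acta2, which encodes smooth muscle alpha-actin, was at 229, 239 and 253 FPKM in the 3KR libraries, against 114, 127 and 126.5 FPKM in the WT libraries. The highest WT library was thus well below the lowest of 3KR, and the level ranked 212th among tested genes in 3KR and 468th in WT. The ratio of means was 1.96 (log2 difference 0.97 ± 0.055 SE; limma adjusted p = 2.683e-06). Actg2, the gamma-actin of visceral smooth muscle, was at 16.05, 15.5 and 17.2 FPKM in 3KR, against 6.56, 7.61 and 7.98 FPKM in WT. It was much less abundant than Acta2 per length, and its groups were as clearly apart (log2 difference 1.04 ± 0.073; limma adjusted p = 8.982e-06). Acta2 was 14.8 ± 0.57 times Actg2 in 3KR and 16.6 ± 0.76 times in WT (exact permutation p = 0.1, adjusted 0.11 over 11 such ratios, which were chosen after the values were seen). The coding sequences of the actins are nearly identical, so how the authors' counting split shared reads between them is uncertain.

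The tropomyosins are coiled rods that lie along the actin filament. Tpm1 was the most abundant of the 10 genes, at 623, 627.5 and 641 FPKM in 3KR, against 443, 466 and 463 FPKM in WT. Its groups did not overlap, but its ratio of 1.38 was smaller (log2 difference 0.46 ± 0.033; limma adjusted p = 9.502e-06). Tpm2, the beta-tropomyosin of muscle, was at 83.1, 88.2 and 88.6 FPKM in 3KR, against 40.4, 42.0 and 40.2 FPKM in WT. All its 3KR libraries were thus at about double the WT level, and it had the smallest p of the 10, with a ratio of 2.12 and a log2 difference of 1.07 ± 0.040 (limma adjusted p = 2.784e-07). The level of Tpm2 over that of Tpm1 was 0.137 ± 0.0038 in 3KR and 0.0895 ± 0.0022 in WT (SD, n = 3 each; exact permutation p = 0.1, adjusted 0.11) and did not overlap between the groups. The table has a single value per gene, and the muscle and non-muscle transcripts that Tpm1, Tpm2 and Cald1 each produce cannot be told apart in it.

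The calponins bind actin and restrain the myosin motor. Cnn1, the calponin largely restricted to smooth muscle, was at 4.34, 4.25 and 5.01 FPKM in 3KR, against 1.17, 1.22 and 1.16 FPKM in WT. It was the least abundant of the 10 and had the largest change, with a ratio of 3.83, a log2 difference of 1.34 ± 0.070 (limma adjusted p = 1.703e-06) and the 66th largest rise of all genes tested. A pseudocount of 1 understates the change of so low a gene, and with 0.1 its log2 difference was 1.85. Cnn2, the calponin of many cell types, was at 65.3, 71.4 and 68.9 FPKM in 3KR, against 55.6, 56.9 and 54.7 FPKM in WT. Its groups did not overlap, yet the log2 difference of 0.29 ± 0.043 (limma adjusted p = 5.914e-04) was the smallest of the 10 and was 0.14 relative to the median gene. After median ratio scaling it was 0.13 (limma adjusted p = 0.0315). The level of Cnn1 over that of Cnn2 was 0.0662 ± 0.0066 in 3KR and 0.0213 ± 2.0e-04 in WT (exact permutation p = 0.1, adjusted 0.11).

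Tagln, also called SM22-alpha, encodes the actin-bundling protein transgelin. It was at 89.8, 103 and 109.8 FPKM in 3KR, against 45.4, 49.9 and 47.9 FPKM in WT. The 3KR libraries varied more among themselves than those of WT, and all stood above them, with a ratio of 2.11 and a log2 difference of 1.06 ± 0.072 (limma adjusted p = 8.285e-06). Cald1 encodes caldesmon, which links actin to myosin and blocks the sliding of the filament until it is phosphorylated. It was at 276, 275 and 271 FPKM in 3KR, against 208, 223 and 220.1 FPKM in WT. The 3KR libraries were higher by a small margin, a ratio of 1.26 and a log2 difference of 0.33 ± 0.036 (limma adjusted p = 1.120e-04), which is 0.18 relative to the median gene and 0.16 after median ratio scaling (limma adjusted p = 0.0112).

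Myl9 encodes the regulatory light chain of smooth muscle myosin, the subunit whose phosphorylation starts contraction. It was at 31.05, 32.4 and 34.3 FPKM in 3KR, against 14.5, 15.9 and 16.0 FPKM in WT. All 3KR libraries were about double those of WT, with a ratio of 2.10 and a log2 difference of 1.03 ± 0.055 (limma adjusted p = 2.067e-06). Lmod1 encodes leiomodin, which starts new actin filaments in smooth muscle. It was at 4.5, 4.73 and 5.025 FPKM in 3KR, against 3.10, 2.84 and 2.905 FPKM in WT. The groups were apart at this low level too, with a ratio of 1.61 and a log2 difference of 0.54 ± 0.060 (limma adjusted p = 1.361e-04).

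The changes of the 10 genes formed an upper and a lower range, a division made after the values were seen. For Acta2, Actg2, Tagln, Cnn1, Myl9 and Tpm2 the 95% confidence interval of the log2 difference began at 0.84 or higher, and for Lmod1, Tpm1, Cald1 and Cnn2 it ended at 0.68 or lower. Both the most abundant genes of the 10, Tpm1 and Cald1, were in the lower range, and so was the scarce Lmod1. Acta2 over Cald1 was 0.878 ± 0.052 in 3KR and 0.565 ± 0.015 in WT (SD, n = 3 each; exact permutation p = 0.1, adjusted 0.11), a ratio that a single scaling factor per library leaves as it is. Together the 10 genes took 0.348% to 0.354% of the summed FPKM of a library in 3KR and 0.238% to 0.253% in WT. Within 3KR, the library numbered 1 was the lowest for 7 of the 10 genes and the one numbered 3 the highest for 8, and their FPKM sums over all genes were the lowest and highest of the group as well. Within WT, the library numbered 1 was the lowest for 6 of the 10 and the one numbered 2 the highest for 7.

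**Figure D2:**
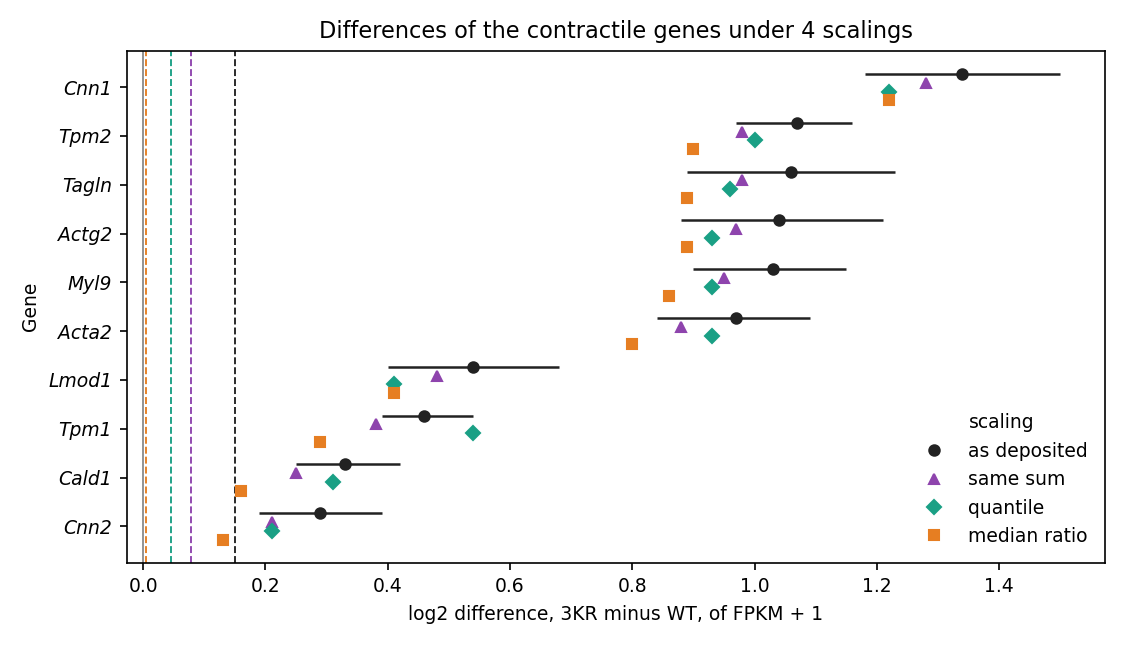
Log2 difference of each contractile gene, 3KR minus WT, on the log2(FPKM + 1) scale under 4 scalings (symbols), with the 95% confidence interval for the values as deposited (black lines). Dashed lines mark the median of all genes tested under each scaling, from 0.15 as deposited to 0.00531 after median ratio scaling. Cnn1 lies farthest right and Cnn2 and Cald1 lie closest to the dashed lines.

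The promoters of these genes are shown because SRF is known to act on them through the CArG box. RefSeq windows on the mouse assembly GRCm38.p6, from 250 bases before to 50 bases after the start site, were at hand for 8 of the 10 genes, all but Tagln and Actg2, with a pair of windows for Cald1. The authors' own build is not resolved in the sources used here, so these coordinates belong to the RefSeq windows alone. A CArG box was in 2 of the 9 windows, those of Cnn2 and Myl9, against 1.63% of all 32851 mouse windows. An element with a single C or G inside its A/T core, called CArG-like here, was in 2 of 9, those of Acta2 and Myl9, against 8.5% of all windows. Both were searched on both strands at once, since each pattern reads alike on either, and a CArG box is never counted as CArG-like. The 3 windows that held either are printed 5′ to 3′ with the elements in capitals.
Acta2 (GRCm38.p6 chr19:34255324-34255623, minus strand): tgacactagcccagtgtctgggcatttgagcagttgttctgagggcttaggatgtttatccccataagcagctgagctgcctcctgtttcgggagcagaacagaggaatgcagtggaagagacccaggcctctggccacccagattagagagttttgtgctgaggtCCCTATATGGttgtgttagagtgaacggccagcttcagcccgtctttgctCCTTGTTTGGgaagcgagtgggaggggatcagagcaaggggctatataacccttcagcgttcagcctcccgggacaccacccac
Myl9 (GRCm38.p6 chr2:156775214-156775513, plus strand): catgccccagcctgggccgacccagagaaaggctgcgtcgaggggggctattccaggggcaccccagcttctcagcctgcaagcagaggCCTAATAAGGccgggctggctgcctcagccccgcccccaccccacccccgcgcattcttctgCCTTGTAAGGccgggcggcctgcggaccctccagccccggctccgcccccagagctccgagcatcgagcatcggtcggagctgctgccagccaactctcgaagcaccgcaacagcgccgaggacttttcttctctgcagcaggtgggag
Cnn2 (GRCm38.p6 chr10:79988350-79988649, plus strand): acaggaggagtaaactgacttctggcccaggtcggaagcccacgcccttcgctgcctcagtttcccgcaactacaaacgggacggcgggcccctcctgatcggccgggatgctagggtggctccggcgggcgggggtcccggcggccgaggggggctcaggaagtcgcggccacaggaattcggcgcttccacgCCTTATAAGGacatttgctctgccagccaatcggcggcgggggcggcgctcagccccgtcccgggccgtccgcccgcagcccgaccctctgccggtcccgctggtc
Distances are to the start sites of the RefSeq windows, and the starts used in these cells were not measured. The Acta2 window had CArG-like elements CCCTATATGG and CCTTGTTTGG, which began 84 and 34 bases before that start. In Myl9 the CArG box CCTAATAAGG began 161 bases before the start and the CArG-like element CCTTGTAAGG 99 bases before it. In Cnn2 the CArG box CCTTATAAGG began 56 bases before the start. Acta2 and Myl9 were in the upper range of change and Cnn2 had the smallest difference of all 10. The windows without either element were those of Cnn1 and Tpm2, also in the upper range, and of Lmod1, Tpm1 and Cald1, in the lower. The letters TATAAA, on either strand, were in 1 of the 9 windows (Cald1) and in 13.6% of all windows, and they can lie inside a CArG box. The letters CATTCC, the core of the element bound by TEAD factors, were on either strand in 4 of the 9 (Acta2, Cald1, Lmod1 and Tpm1) and in 14.7% of all windows. A match is a description of the sequence and not a measured binding site.

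All of the 10 genes but Cald1 belong to families whose other members do similar work, often outside muscle, and the share of a family within a library is not moved by a single scaling factor per library, though quantile normalization can move it. Of 9 tested relatives that are not among the 10, 6 rose and 1 fell as deposited, and 5 rose and 3 fell after median ratio scaling, with a median relative difference of 0.22 as deposited. Of all genes tested, 46.7% were higher and 14.0% lower as deposited, and 21.6% and 24.1% after median ratio scaling. Acta2 and Actg2 together made up 37.7% ± 0.92 of the summed FPKM of 5 actins in 3KR and 32.6% ± 0.81 in WT (SD, n = 3 each). The remainder was nearly all cytoplasmic Actb, at 423 ± 5.51 FPKM in 3KR and 268 ± 7.89 in WT, which rose too (log2 difference 0.65, limma adjusted p = 1.488e-06). The other cytoplasmic actin, Actg1, was not analysed here, so these shares and the remainder leave it out. Tagln made up 95.9% ± 0.25 of the transgelins in 3KR and 89.6% ± 0.23 in WT, and its relative Tagln2 fell, to 4.08 ± 0.157 FPKM in 3KR, against 5.48 ± 0.355 in WT (log2 difference -0.35, limma adjusted p = 0.00146).

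Myl9 made up 10.3% ± 0.069 of the regulatory light chains in 3KR and 6.58% ± 0.36 in WT (SD, n = 3 each). The bulk of this family was Myl12a, which rose to 273 FPKM in 3KR, against 209 in WT (log2 difference 0.38, limma adjusted p = 1.498e-04), and Myl12b was at 10.06 FPKM in 3KR and 10.7 in WT (limma adjusted p = 0.188), and was called lower under the 3 other scalings. Lmod1 made up 6.43% ± 0.20 of the leiomodins and tropomodulins in 3KR and 4.02% ± 0.52 in WT. Tmod3, which held most of that family, was at 65.7 FPKM in 3KR and 68.9 in WT (limma adjusted p = 0.391) and was called lower after median ratio scaling (limma adjusted p = 0.0143), and Tmod2 rose to 2.48 FPKM in 3KR, against 1.48 in WT. Lmod2 and Lmod3, of striated muscle, were listed at 0 in all 6 libraries.

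Cnn1 and Cnn2 made up 59.5% ± 0.80 of the calponins in 3KR and 57.0% ± 0.30 in WT, with Cnn3 at 49.6 FPKM in 3KR and 43.0 in WT. Cnn3 rose as deposited (limma adjusted p = 0.00131) but not after median ratio scaling (limma adjusted p = 0.443). Tpm1 and Tpm2 made up 76.2% ± 0.049 of the tropomyosins in 3KR and 75.1% ± 0.21 in WT. The level of Tpm1 over that of the non-muscle Tpm4 was 3.67 ± 0.022 in 3KR and 3.65 ± 0.022 in WT, and these groups overlapped (exact permutation p = 0.3, adjusted 0.3). Tpm3 and Tpm4 rose 1.30-fold and 1.37-fold, next to 1.38-fold for Tpm1. The share of the contractile genes was higher in all 3 libraries of 3KR than in any of WT for all 6 families. Each exact two-sided permutation test gave p = 0.1 (0.1 after adjustment over the 6), the smallest that 3 against 3 libraries allow. The actin, tropomyosin and calponin shares pool their members, so they do not show that each member gained on its relatives. Tpm2 rose 2.12-fold, beside 1.38-fold for Tpm1, and Cnn1 rose 3.83-fold, beside 1.23-fold for Cnn2 and 1.15-fold for Cnn3.

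**Figure D3:**
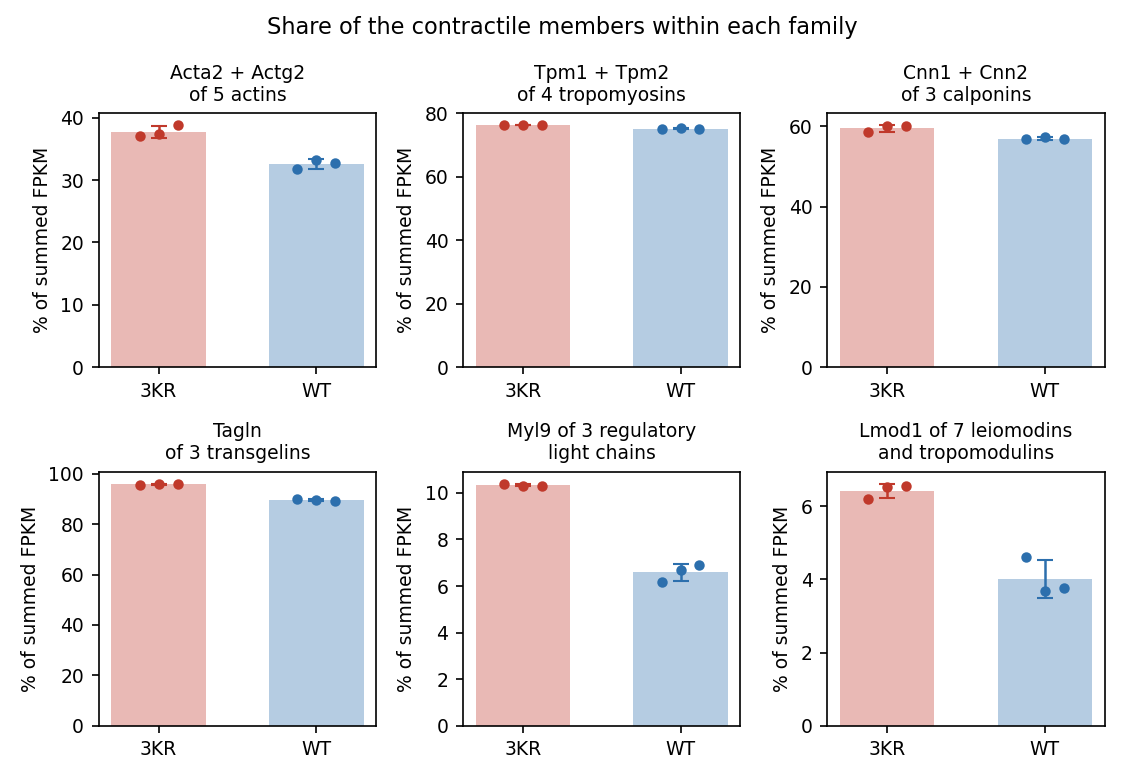
Percentage of the summed FPKM of a protein family that came from the contractile genes named above each panel, per library (points), with the group mean (bars) and SD (error bars, n = 3). The 3KR libraries lie above the WT libraries in all 6 panels, by 6.32 percentage points for the transgelins and by 1.12 for the tropomyosins.

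Genes of later smooth muscle differentiation did not all follow. Of 18 such genes fixed as a list, 11 were tested, and 8 rose and 3 fell, the same counts under all 4 scalings, with a median relative difference of 0.35, beside 46.7% higher and 14.0% lower of all genes tested. Itga8, an integrin subunit of contractile cells, rose to 15.9 ± 0.601 FPKM in 3KR, against 4.22 ± 0.461 in WT (SD, n = 3 each; limma adjusted p = 4.954e-07). Its ligand Npnt, nephronectin, rose 3.11-fold, and Hspb6, a small heat shock protein of muscle, rose 2.67-fold. Smtn, the stress fibre protein smoothelin, rose 1.30-fold. Mylk, the kinase that phosphorylates the myosin light chain, was at 3.34, 3.15 and 2.69 FPKM in 3KR, against 5.46, 5.29 and 5.05 FPKM in WT. All 3 of its 3KR values were below those of WT, opposite in direction to its substrate Myl9 (log2 difference -0.63 ± 0.072; limma adjusted p = 1.599e-04). Pgm5, an adhesion plaque protein of muscle, fell to 3.16 ± 0.181 FPKM in 3KR, against 7.66 ± 0.0437 in WT, and Synm, an intermediate filament protein, fell to 1.65 ± 0.336, against 2.45 ± 0.274. Pgm5, Itga8, Npnt and Hspb6 had the smallest p of the list, and its other genes were named after their values were seen.

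The remaining 7 genes of that list were under 1 FPKM on average in both groups. Myh11, the heavy chain of smooth muscle myosin and a defining marker of mature smooth muscle, was at 0.332, 0.265 and 0.334 FPKM in 3KR, against 0.782, 0.922 and 0.891 FPKM in WT. All 3 of its 3KR values were thus below those of WT, opposite to the 10 contractile genes. Synpo2 and Aoc3 had lower means in 3KR as well, Synpo2 at 0.375 FPKM in 3KR and 0.674 in WT and Aoc3 at 0.396 in 3KR and 0.831 in WT. Des, the muscle intermediate filament desmin, was at 0.672 FPKM in 3KR and 0.208 in WT. When low genes were not filtered, Myh11 (limma adjusted p = 7.122e-04), Synpo2 (0.00133) and Aoc3 (0.00739) were called lower and Des higher (0.0367), beside 9.25% lower and 26.2% higher of 19026 genes, and the call of Synm was lost (0.0503). Pln was listed at 0 in all 6 libraries and Kcnmb1 in all 3 of 3KR.

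**Figure D4:**
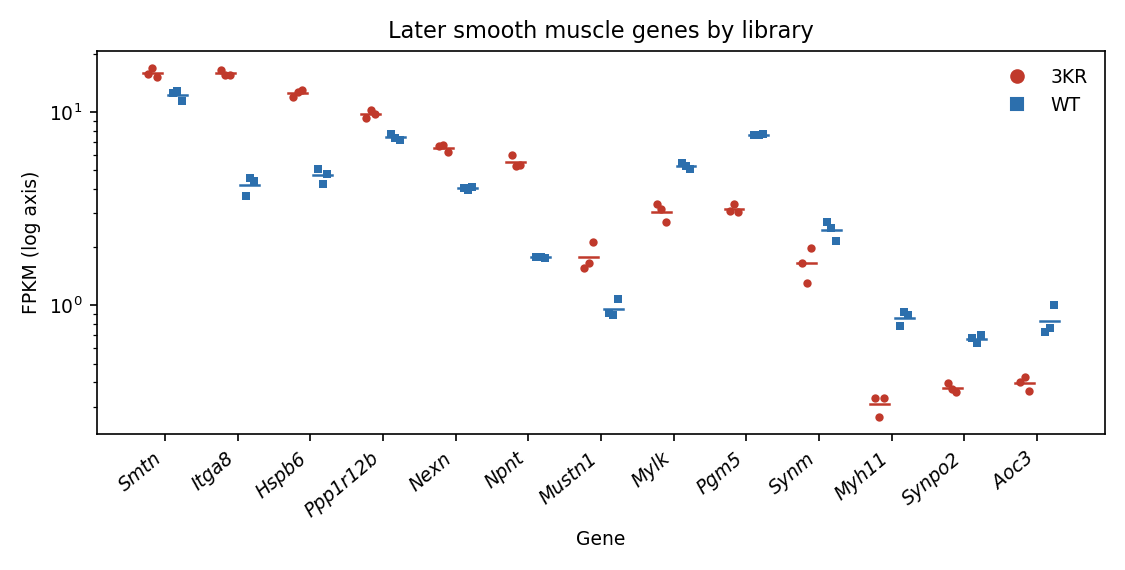
FPKM (log axis) of genes of later smooth muscle differentiation in the 3 libraries of 3KR (red circles) and of WT (blue squares), with the group mean as a line. The genes on the left, from Smtn to Mustn1, were higher in 3KR and those on the right, from Mylk to Aoc3, were lower, with Myh11, Synpo2 and Aoc3 at or below about 1 FPKM.

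The motor that moves these filaments outside muscle is non-muscle myosin. Of 17 tested genes of non-muscle myosin and its regulators, 11 rose and 2 fell as deposited, and 6 rose and 3 fell after median ratio scaling, where 21.6% of all genes were higher and 24.1% lower (46.7% and 14.0% as deposited). The median relative difference of the list was 0.06. Myh9, the heavy chain of non-muscle myosin IIA, was far above any of the 10 contractile genes, at 1483 ± 23.5 FPKM in 3KR and 885 ± 12.6 in WT (SD, n = 3 each; limma adjusted p = 3.359e-07). Myh10, its IIB partner, rose 1.42-fold and Arhgef1, an activator of the small GTPase RhoA, 1.40-fold, while Arhgef2, another such activator, fell to 57.7 FPKM in 3KR, against 76.8 in WT. The level of Acta2 over that of Myh9 was 0.162 ± 0.0089 in 3KR and 0.139 ± 0.0093 in WT (exact permutation p = 0.1, adjusted 0.11).

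Srf, the factor that binds the CArG box, was at 11.0, 11.4 and 11.7 FPKM in 3KR, against 9.21, 9.31 and 8.79 FPKM in WT. Its groups did not overlap, and its log2 difference of 0.29 ± 0.047 (limma adjusted p = 9.816e-04) was 0.14 relative to the median gene. Mrtfa and Mrtfb, the cofactors released by actin assembly and listed under their older names Mkl1 and Mkl2, rose 1.29-fold and 1.42-fold (limma adjusted p = 0.00123 and 1.298e-04). Myocd, the cofactor specific to muscle, was at 0.0739 ± 0.0298 FPKM in 3KR and 0.0269 ± 0.0032 in WT, below the filter for testing. When low genes were not filtered, Myocd had no call (limma adjusted p = 0.0764). Of 12 tested genes of this list, 7 rose and 2 fell as deposited, and 5 rose and 3 fell after median ratio scaling, beside 46.7% higher and 14.0% lower of all genes as deposited and 21.6% and 24.1% after that scaling. The median relative difference of the list was 0.01, so it lay close to the whole table. Both falls as deposited were in LIM proteins. Csrp2, which binds SRF in smooth muscle, fell to 3.96 ± 0.171 FPKM in 3KR, against 10.75 ± 0.258 in WT (limma adjusted p = 4.384e-07), and Fhl1 fell to 6.71 FPKM in 3KR, against 12.75 in WT, while the relative Csrp1 rose to 40.9 FPKM in 3KR, against 27.3 in WT. Klf4, a repressor of these genes, was at 44.2 FPKM in 3KR and 43.1 in WT (limma adjusted p = 0.505).

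Of 22 tested genes of focal adhesions and stress fibres, where the contractile filaments are anchored, 15 rose and 4 fell as deposited, and 8 rose and 7 fell after median ratio scaling. The shares over the whole table were 46.7% up and 14.0% down as deposited, against 21.6% and 24.1% with that scaling, and the median relative difference of the list was 0.11. Vcl, the linker vinculin, was at 278, 257 and 259 FPKM in 3KR, against 122, 118.5 and 121 FPKM in WT. Its groups were wide apart, with a ratio of 2.19 (limma adjusted p = 1.617e-07). Actn4 and Flna, which cross-link actin, rose 1.69-fold and 1.56-fold, and Tln2, a talin, fell to 26.2 FPKM in 3KR, against 41.5 in WT.

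**Figure D5:**
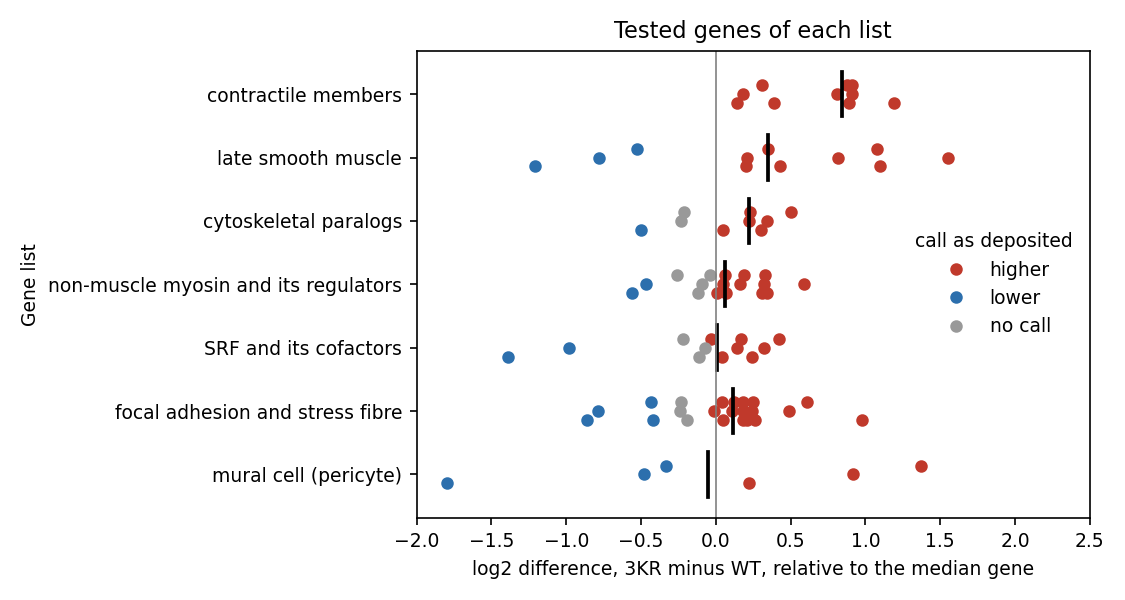
Log2 difference, 3KR minus WT, relative to the median gene tested, for each tested gene of 7 lists (points, coloured by the limma call on the values as deposited), with the median of each list as a black line. The contractile genes lie from 0.14 to 1.19 with none below 0, and each of the 6 other lists has genes on both sides of 0.

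Markers of mural cells, another contractile cell type, gave no common direction. Of 6 tested markers of mural cells (pericytes), 3 rose and 3 fell, beside 46.7% higher and 14.0% lower of all genes, with a median relative difference of -0.05. The 11 in the table summed to 158.9 to 167.5 FPKM in 3KR and 157.7 to 167.9 in WT. Rgs5, a regulator of G-protein signalling that marks pericytes, rose to 5.28 ± 0.578 FPKM in 3KR, against 1.19 ± 0.043 in WT (limma adjusted p = 1.324e-06), Cspg4, the pericyte proteoglycan NG2, rose 2.21-fold, and Notch3 rose 1.30-fold. Ndufa4l2 fell to 2.63 FPKM in 3KR, against 10.3 in WT, and Pdgfrb, the receptor that defines pericytes, fell to 74.0 FPKM in 3KR, against 93.2 in WT. The 5 untested markers were under 1 FPKM on average in both groups, 2 with higher means in 3KR and 3 with lower means. Kcnj8 and Vtn, both with lower means, were listed at 0 in all 3 libraries of 3KR, against averages of 0.0399 and 0.01745 FPKM in WT. Anpep, an aminopeptidase on pericytes, fell to 4.78 FPKM in 3KR, against 5.53 in WT. The 24 markers of striated muscle in the table summed to 3.92 to 4.71 FPKM in 3KR and 5.46 to 6.93 in WT. Of the 24, 15 had lower and 7 had higher means in 3KR, and 22 averaged under 1 FPKM in both groups. Of the 2 tested, Mylpf fell and Actn3 had no call. The determination factor Myod1 and the kinase Ckm were listed at 0 throughout. The part of mural cells in the changes of the 10 contractile genes was not tested.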

How the data were processed

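Transcript levels were measured in 6 input libraries of BMSCs, 3 per group. The deposited table gives FPKM per gene and library, per the file headers. Per the labels' protocols, TRIzol RNA was enriched for poly(A) with oligo(dT). The only build named is GRCh38, a human assembly, per the submitters' processing notes, while the organism is mouse. No aligner or quantifier is named there. FPKM divides by the library's fragments, so an abundant gene that changes moves all others.

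Of 19763 rows, 24 repeated a gene name, and of each such set only the highest row on average was used. The 10985 genes that reached 1 FPKM in 3 or more libraries were tested by limma 3.58.1 (R 4.3.3) on log2(FPKM + 1) with an intensity trend and Benjamini-Hochberg adjustment, at a threshold of 0.05. The pseudocount of 1 understates the fold of low genes. Ratios are of mean FPKM. Shares and gene ratios were compared by exact two-sided permutation tests over libraries (SciPy 1.17.1). The fit was tested on simulated data. Alternatives were a pseudocount of 0.1, other filters, 3 other scalings, no intensity trend, a replicate block and leaving out each library. Named genes were the 10 members, their family relatives, Fto and up to 4 genes with the smallest p per list, and any further genes were named after their values were seen. A gene of the later smooth muscle list is counted but not reported by name here. Members and lists were chosen with earlier results of these data known. Promoter windows are RefSeq's on GRCm38.p6, used for sequence alone.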

Additional observations from a re-analysis of the deposited data

How the results depend on the processing

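The call of each of the 10 contractile genes as higher in 3KR held under all 14 alternatives in which it could be tested, 138 gene and setting pairs, with adjusted p up to 0.0315 (Cnn2 after median ratio scaling). At an FPKM of 5 or more, Cnn1 and Lmod1 were not tested. As deposited, 5127 genes were called higher and 1535 lower. Median ratio scaling gave 2371 higher and 2645 lower, quantile normalization gave 3142 higher, and leaving out each library in turn gave 4328 to 5164 higher and 1386 to 1474 lower. After median ratio scaling, 6 genes of non-muscle myosin and its regulators were higher in place of 11, and 8 of focal adhesions in place of 15. Lower genes of focal adhesions, 4 as deposited, numbered 7 under each of the 3 other scalings and 2 at an FPKM of 5 or more. Lower cytoskeletal relatives, 1 as deposited, numbered 2 after rescaling to the same sum, 3 after median ratio scaling, 2 after quantile normalization, 2 with no filter on low values and 1 to 2 without each library in turn, where Tmod3 was called without WT replicate 1. With no filter on low values, 5 later smooth muscle genes and 5 mural markers were lower, in place of 3 and 3, because more genes were tested. Elsewhere the cause was not tested. Member shares kept their direction in all 6 families with repeated rows summed. They also did so without each library in turn and as log2 ratios, which was certain beforehand because the groups did not overlap. A fit with the replicate number as a block called 4926 genes higher and 1499 lower and all 10 contractile genes higher. Libraries of the same number did not deviate together (correlations -0.0147, 0.0295 and -0.0338). That gave no sign that the numbers pair the libraries, though 3 libraries per group cannot exclude a pairing. Without read counts, no limit set by depth can be given for the genes near 0.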

Other observations

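Alpha cardiac actin, Actc1, was listed at 0 in all 3 libraries of 3KR and was at 0.319, 0.280 and 0.275 FPKM in WT. Acta1, the skeletal actin, was at 0.0941 FPKM in 3KR and 0.132 in WT. Mylpf, the regulatory light chain of fast skeletal muscle, fell to 0.255 FPKM in 3KR, against 1.76 in WT (limma adjusted p = 7.431e-04), opposite to the smooth muscle light chain Myl9. Tek, the angiopoietin receptor of endothelium, fell to 1.46 FPKM in 3KR, against 5.13 in WT (limma adjusted p = 3.124e-06). It was the tested endothelial marker, while Cd68, a macrophage marker and the tested blood cell marker, was at 0.700 FPKM in 3KR and 1.16 in WT (limma adjusted p = 0.0836).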
